A study of Homo sapiens with 14 samples.

Results

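The 10 genes RAB34, RAB25, CALML3, SBSPON, CASC15, SULT1C4, AGR2, STRIT1, ALDH1A2 and FES were those seen with TET2 in the same cells of SW620-TET2CD. They were picked by symbol from 36601 genes of the single-cell matrices and were all found among the 60669 genes of the bulk tables. The values that chose them were their level in SW620-TET2CD against SW620 and their detection in cells with a TET2 UMI, so these are described here without a test. SW620 is a colorectal cancer cell line from a lymph node metastasis, and SW480 is a line from the primary tumor of the same patient. The study set SW620 carrying a FLAG vector, labelled SW620, against SW620-TET2CD, which overexpresses the catalytic domain of TET2, during long-term culture (LTC) without passage. Single-cell libraries covered the 2 lines on days 6, 9, 12 and 15, with 1 library for each line and day. Bulk RNA was taken from undivided SW480 and SW620 cultures of day 6 and, on day 15, from colony cells (inside) and the cells around them (outside) of SW620 and SW620-TET2CD, again as 1 library each. Inside and outside cells were separated with a cell strainer, per the study's methods, and may come from the same culture. The sources used here do not state whether the overexpressing line is a single clone.

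TET2 is a dioxygenase that oxidizes methylated cytosine in DNA, which leads to removal of the methyl group, mainly at CpG dinucleotides. The catalytic domain carries this activity without the N-terminal part of the protein. The 10 genes come from different pathways. RAB34 and RAB25 are small GTPases of membrane traffic, CALML3 and STRIT1 act in calcium signaling and calcium pumping, and AGR2 and SBSPON belong to the secretory pathway and the extracellular space. SULT1C4 and ALDH1A2 are metabolic enzymes, FES is a tyrosine kinase, and CASC15 is a long non-coding RNA. A TET2 UMI counts endogenous and vector transcripts together, and the matrices do not tell them apart.

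CpG is the site on which TET enzymes act, so the 250 bases upstream of the RefSeq start (GRCh38.p14) are shown for 4 genes that were higher in cells with TET2, chosen to span the range from few to many CpGs. No DNA methylation was measured in the files used here. AGR2 (chr7:16805000-16805249, minus strand) held 3 CG dinucleotides and RAB25 (chr1:156060910-156061159, plus strand) 8. CALML3 (chr10:5524711-5524960, plus strand) held 11, and the first of the 2 listed starts of ALDH1A2 (chr15:58065712-58065961, minus strand) 33. Each sequence is written 5′ to 3′ on the strand of its gene, with every CG in capitals.

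AGR2: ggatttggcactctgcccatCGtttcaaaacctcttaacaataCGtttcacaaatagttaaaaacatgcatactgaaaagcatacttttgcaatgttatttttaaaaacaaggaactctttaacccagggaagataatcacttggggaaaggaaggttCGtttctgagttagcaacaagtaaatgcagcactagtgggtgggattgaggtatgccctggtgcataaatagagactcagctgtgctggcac
RAB25: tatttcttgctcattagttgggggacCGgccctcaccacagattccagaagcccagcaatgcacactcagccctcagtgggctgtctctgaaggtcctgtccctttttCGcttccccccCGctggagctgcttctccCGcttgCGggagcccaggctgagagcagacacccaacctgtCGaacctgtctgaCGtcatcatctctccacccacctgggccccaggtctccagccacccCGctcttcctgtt
CALML3: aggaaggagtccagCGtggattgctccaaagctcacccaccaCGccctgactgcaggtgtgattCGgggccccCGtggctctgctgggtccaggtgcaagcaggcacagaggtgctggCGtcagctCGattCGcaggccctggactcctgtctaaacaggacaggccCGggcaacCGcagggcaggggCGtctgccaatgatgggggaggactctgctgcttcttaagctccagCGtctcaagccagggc
ALDH1A2: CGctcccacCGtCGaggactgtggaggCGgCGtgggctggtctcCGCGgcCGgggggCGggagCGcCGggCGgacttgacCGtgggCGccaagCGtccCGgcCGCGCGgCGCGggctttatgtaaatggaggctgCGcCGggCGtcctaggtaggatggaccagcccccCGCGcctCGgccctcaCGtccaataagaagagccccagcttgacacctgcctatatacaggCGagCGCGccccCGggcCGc

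The same window held 1 CG at the second start of ALDH1A2, 4 at SULT1C4, 5 at STRIT1, 9 at FES, 14 at CASC15, and 10, 10 and 16 at the 3 listed starts of RAB34. Of 35116 such windows in the RefSeq table, 93.9% held at least 1 CG on a search that reads the same on both strands, with a median of 11 and quartiles of 3 and 23. AGR2 had more CGs than 22.9% of all windows, and the first start of ALDH1A2 more than 91.9%. The genes lay on both sides of the median in CpG number. Windows were kept for 9 of the 10, and SBSPON, on chromosome 8, was left out.

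Before the members, TET2 was checked as the gene that was overexpressed. Its summed level on days 6, 9, 12 and 15 was 2.11, 2.32, 3.90 and 2.93 CPM (UMIs of the gene scaled to the same library total) in SW620 and 107, 59.5, 40.2 and 41.6 CPM in SW620-TET2CD, so the lines did not overlap. In all, 48282 of 67056 barcodes were kept, between 3894 and 8154 per library, and a library held 48186195 to 74185723 UMIs in kept cells. Counts of 3 UMIs correspond to 0.0404 to 0.0623 CPM, and intervals below cover counting error only. A pair of libraries shared 1 to 23 cell barcodes, at most 0.334% of the smaller one. Of 10 colorectal epithelial markers 9 exceeded 1 CPM in all 8 libraries, and KRT20 did not. The summed level of 6 immune markers was 5.96 to 21.2 CPM in SW620 and 13.5 to 32.3 CPM in SW620-TET2CD, and that of 6 fibroblast markers 10.7 to 28.7 and 8.37 to 20.3 CPM, mostly from LYZ and LUM. PTPRC, CD3E, COL1A2 and COL3A1 were at or near 0, and COL1A1 was at 1.15 to 2.72 CPM in SW620 and 1.46 to 3.35 CPM in SW620-TET2CD. The summed endothelial markers did not overlap between the lines, at 0.379 to 0.493 CPM in SW620 and 0.841 to 1.39 CPM in SW620-TET2CD, with PECAM1 at 0.165 to 0.246 and 0.415 to 1.27 CPM. The neuroendocrine list summed to 5.58 to 9.21 and 8.39 to 12.8 CPM, and the part of any of these markers in the results was not tested.

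RAB34 and RAB25, the genes of membrane traffic, were almost absent from SW620 and present on all days in SW620-TET2CD. RAB34 (ENSG00000109113, chr17:28714281-28718429, minus strand) is a GTPase of the Golgi and of primary cilium formation. On days 6, 9, 12 and 15 it stood at 0.0948, 0.110, 0.0788 and 0.0378 CPM in SW620 and at 15.2, 11.6, 10.2 and 11 CPM in SW620-TET2CD. In SW620 these levels rest on 7, 6, 4 and 2 UMIs, and the SW620-TET2CD libraries lay far above them. RAB25 (ENSG00000132698, chr1:156061160-156070504, plus strand) is an epithelial relative of RAB11 that returns proteins from recycling endosomes to the cell surface. Its levels were 0.0135, 0.0184, 0.217 and 0.227 CPM in SW620, from 1, 1, 11 and 12 UMIs, and 1.85, 4.2, 6.99 and 8.55 CPM in SW620-TET2CD. The libraries of the lines did not overlap, and days 12 and 15 were above days 6 and 9 in each line.

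CALML3 (ENSG00000178363, chr10:5524961-5526771, plus strand), a calmodulin-like calcium binding protein of epithelia, was detected in 20.1% of SW620-TET2CD cells on day 9 and in 2.05% of SW620 cells, with median depths of 11152 and 6640 UMIs. It stood at 4.36, 2.89, 0.315 and 0.0568 CPM in SW620 and 35.9, 60.2, 30.2 and 13.6 CPM in SW620-TET2CD on days 6 to 15. SW620 was low throughout and at 3 UMIs on day 15, while SW620-TET2CD peaked on day 9. STRIT1 (ENSG00000240045, chr3:155290227-155293683, minus strand) encodes a micropeptide that activates the sarcoplasmic calcium pump in muscle. Its levels were 0.176, 0.129, 0.118 and 0.0946 CPM in SW620 and 4.89, 5.24, 4.88 and 2.10 CPM in SW620-TET2CD. On days 6, 9 and 12 SW620-TET2CD held nearly the same level, and day 15 was below these.

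AGR2 (ENSG00000106541, chr7:16791811-16833433, minus strand) is a disulfide isomerase of the endoplasmic reticulum in mucus-secreting epithelium. Over the 4 days it was at 1.77, 0.643, 0.355 and 0.586 CPM in SW620 and 20.2, 6.99, 9.59 and 6.51 CPM in SW620-TET2CD. In each line day 6 was the highest, and no SW620 library reached the lowest SW620-TET2CD library. SBSPON (ENSG00000164764, chr8:73064543-73124088, minus strand) encodes a secreted matrix protein with somatomedin B and thrombospondin domains. It was at 1.91, 2.21, 1.12 and 0.605 CPM in SW620 and 30.2, 30.7, 14.2 and 10.7 CPM in SW620-TET2CD, with days 12 and 15 below days 6 and 9 in each line.

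The enzymes SULT1C4 and ALDH1A2 went different ways over the days. SULT1C4 (ENSG00000198075, chr2:108377911-108388989, plus strand), a cytosolic sulfotransferase, was at 0.217, 0.202, 0.453 and 0.132 CPM in SW620 and at 3.42, 6.13, 7.37 and 14 CPM in SW620-TET2CD, where each day was above the one before. ALDH1A2 (ENSG00000128918, chr15:57953424-58497866, minus strand) oxidizes retinaldehyde to retinoic acid. It stood at 1.04, 0.864, 0.158 and 0.246 CPM in SW620 and 5.22, 4.12, 1.76 and 3.1 CPM in SW620-TET2CD. The gap between the lines, 5-fold on day 6 and 4.77-fold on day 9, was the narrowest of the 10 genes on those days. The lowest SW620-TET2CD library, day 12, was still above the highest SW620 library, day 6.

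FES (ENSG00000182511, chr15:90883695-90895776, plus strand) is a non-receptor tyrosine kinase best known from myeloid cells. It was at 0.190, 0.129, 0.118 and 0.0568 CPM in SW620, from 14, 7, 6 and 3 UMIs, and at 4.38, 2.56, 2.16 and 1.27 CPM in SW620-TET2CD, where each day was below the one before. CASC15 (ENSG00000272168, chr6:21664184-22654455, plus strand) is a long intergenic RNA next to SOX4. It stood at 2.83, 4.10, 3.84 and 4.50 CPM in SW620, from 195 to 238 UMIs, and at 33.7, 48.3, 58.6 and 86.1 CPM in SW620-TET2CD. Between the lines the ratio was 11.9, 11.8, 15.2 and 19.1 on days 6, 9, 12 and 15. For all 10 genes each SW620-TET2CD library lay above each SW620 library, where 2.37% of 17478 tested genes did so, and this is the contrast used to choose them.

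**Figure D1:**
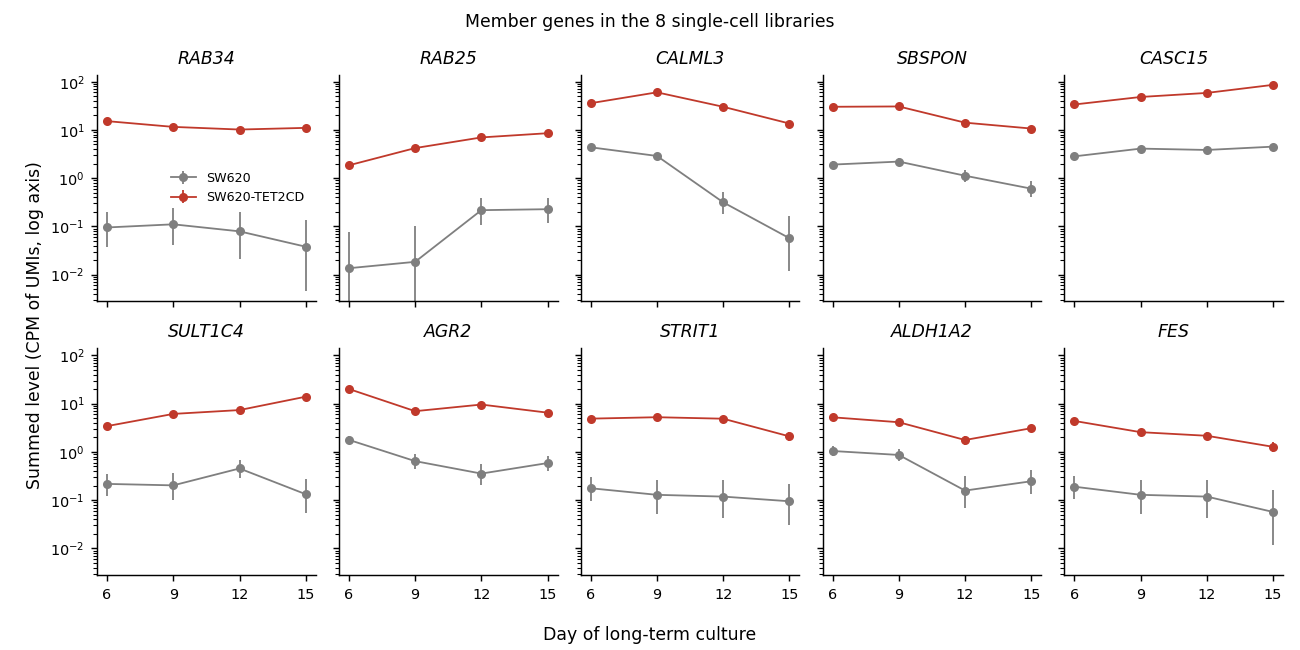
Summed level of each member gene in CPM of UMIs (log axis) by day of LTC in SW620 (grey) and SW620-TET2CD (red), with 1 library per point and exact Poisson 95% intervals. In every panel the SW620-TET2CD libraries lie above the SW620 libraries, and in SW620-TET2CD RAB25, CASC15 and SULT1C4 are highest on day 15.

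Cells of SW620-TET2CD were next grouped by their TET2 UMIs (0, 1, 2, and 3 or more), and the UMIs of each member were summed per group. Each group held 151 to 5880 cells per day, with median depths of 8041.5 to 12218 UMIs in cells without TET2 and 10001.5 to 14163 UMIs in those with 3 or more, and CPM takes account of depth. RAB34 was at 2.31, 18.4, 38.7 and 65.5 CPM in cells with 0, 1, 2 and 3 or more TET2 UMIs on day 6, and at 5.66, 24.4, 34.2 and 48.8 CPM on day 15. The level was higher in each group than in the one before it on both days. FES was at 0.751, 6.31, 7.40 and 19.2 CPM on day 6, but on day 15 its highest group was the one with 2 TET2 UMIs (0.488, 2.97, 7.89 and 5.06 CPM). CASC15 was at 15.9, 56.5, 77.1 and 86.8 CPM on day 6 and 56.9, 181, 188 and 264 CPM on day 15, with cells without a TET2 UMI on day 15 at about the level of those with 1 UMI on day 6.

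Within the cells with 3 or more TET2 UMIs the members took different courses over the days. RAB34 was at 65.5, 56.3, 55.8 and 48.8 CPM on days 6, 9, 12 and 15, lower on each day than on the one before. Its counting intervals of day 6 (60.7 to 70.4) and day 15 (40.9 to 57.8) did not overlap. They cover counting error only and not how replicate cultures of a day would vary. The group has no upper limit on TET2 UMIs. TET2 itself was at 570, 404, 344 and 424 CPM in it on these days, also lower on day 15 than on day 6. The days are thus not compared at equal TET2, and its part in the courses was not tested. SULT1C4 was at 12.8, 21.8, 36.8 and 64.0 CPM and CASC15 at 86.8, 132, 179 and 264 CPM, each highest on day 15, and RAB25 was at 6.31, 17.2, 36.0 and 35.1 CPM, with days 12 and 15 alike. AGR2 was highest on day 6, with 58.0, 17.6, 29.4 and 15.9 CPM, and CALML3 was highest on day 9, with 101, 212, 149 and 66.2 CPM. For these courses no test was made, since they rest on the cells and on the co-detection used to choose the genes.

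Members differed in how much of the rise came with the first TET2 UMI. Between cells with 0 and with 3 or more TET2 UMIs the ratio of levels had a median over the 4 days of 22.6 for FES (range 10.4 to 26.3), 19.4 for RAB34 and 15.1 for RAB25. It was 12.7 for ALDH1A2, 12.4 for STRIT1, 12 for SULT1C4 and 10.6 for CALML3. SBSPON (6.72), AGR2 (5.77) and CASC15 (5.36) had the smallest ratios. Among cells that held TET2, the level with 3 or more UMIs over that with 1 UMI was 2.95 for ALDH1A2, 2.88 for FES and 2.83 for RAB34, as medians over days. The same ratio was 1.43 for CASC15, 1.42 for SBSPON and 1.23 for AGR2. For AGR2 on day 15 the group with 2 TET2 UMIs (4.74 CPM, from 9 UMIs) was no higher than the group with none (4.78 CPM).

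**Figure D2:**
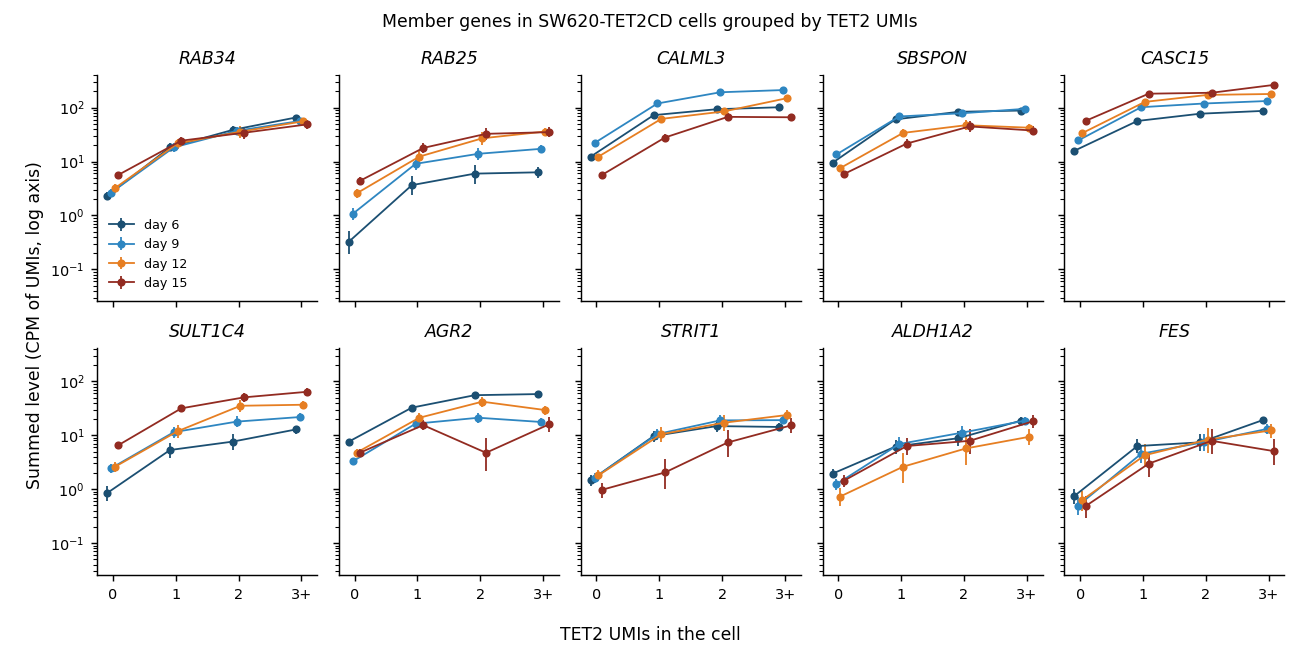
Summed level of each member in CPM of UMIs (log axis) in SW620-TET2CD cells grouped by the TET2 UMIs they held, with a line for each day and exact Poisson 95% intervals. Levels rise from 0 to 1 TET2 UMI in all panels, and for RAB25, CASC15 and SULT1C4 day 15 lies above day 6 at each number of TET2 UMIs.

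Cells without a TET2 UMI still held members above SW620. In these cells CASC15 was at 15.9 CPM on day 6 and 56.9 CPM on day 15, against 2.83 and 4.50 CPM in all cells of SW620. RAB34 was at 2.31 and 5.66 CPM, against 0.0948 and 0.0378 CPM. ALDH1A2 came nearest to SW620, with 1.95 and 1.24 CPM on days 6 and 9 against 1.04 and 0.864 CPM. The share of RAB34 UMIs that lay in cells with a TET2 UMI was 89.4, 83.0, 75.2 and 58.8% on days 6, 9, 12 and 15, while such cells made up 27.9, 24.1, 19.6 and 17.2% of cells. For CASC15 the share was 67.0, 61.9, 54.6 and 46.9%, and for AGR2 73.5, 64.9, 60.6 and 41.0%, each lowest on day 15. A cell without a TET2 UMI may still express TET2, and the part of missed TET2 molecules and of free RNA in these levels was not tested.

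Deeper cells hold more of every gene, so each cell was also thinned to 2000 UMIs, which left out 18 to 89 shallower cells per library. After thinning, a UMI of the member was more common in cells with a TET2 UMI in 40 of 40 combinations of gene and day, and the median over genes of the mean difference was 3.64 percentage points (SD over days 1.04). Co-detection with TET2 was used to choose the genes, so this is given as a description. How many of all genes did so was not counted, and the intervals cover the counting of cells within 1 library only. CALML3 was detected on day 9 in 26.1% (22.6 to 30%) of 570 cells with TET2 and in 7.08% (6.43 to 7.77%) of 5807 cells without, as shares with exact Clopper-Pearson 95% intervals. CASC15 was detected on day 15 in 28.1% (23.4 to 33.2%) of 345 cells with TET2 and 10.4% (9.65 to 11.3%) of 5495 without. For RAB25 the intervals on day 6, 1.29% (0.708 to 2.16%) and 0.327% (0.207 to 0.490%), lay closer together than on day 12, 7.29% (4.38 to 11.3%) and 0.964% (0.673 to 1.34%). Intervals of the shares overlapped for FES on days 12 and 15 and for STRIT1 and AGR2 on day 15, where 3 to 9 cells with TET2 held the gene. In SW620, thinned in the same way, the highest share of cells for any member was 0.868%, for CALML3. Without thinning the median difference was 13.1 percentage points, and with thinning to 1000 UMIs it was 2.16.

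**Figure D3:**
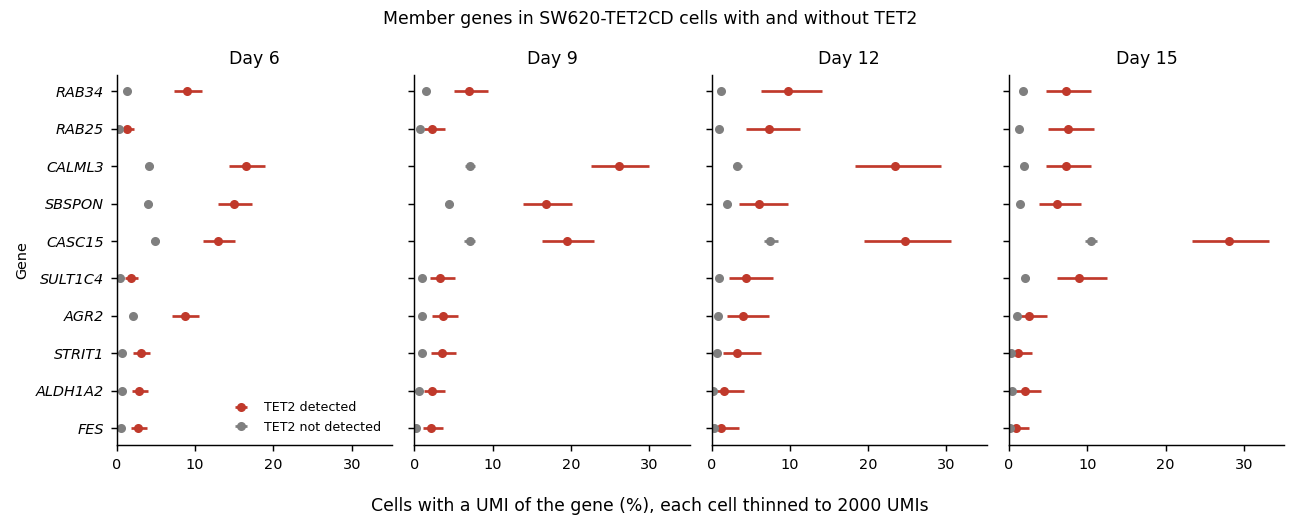
Share of SW620-TET2CD cells with a UMI of each member on each day, in cells with (red) and without (grey) a TET2 UMI after thinning each cell to 2000 UMIs, with exact 95% intervals. The red point lies to the right of the grey point for each gene and day, with the widest gap for CALML3 on days 6, 9 and 12 and for CASC15 on day 15.

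The 10 genes were chosen for detection in the same TET2-positive cells, so their being found together in a cell is set by the choice and is given as a description. At least 1 of the 10 genes was detected, without thinning, in 81.3, 83.0, 76.7 and 71.9% of SW620-TET2CD cells with a TET2 UMI on days 6, 9, 12 and 15, and in 21.5, 27.7, 24.4 and 24.5% of those without. In SW620 the share was 13.7, 7.22, 6.08 and 3.57% of all cells, with median depths of 6640 to 13479 UMIs against 8310.5 to 12379 UMIs in SW620-TET2CD. Of 24383 kept SW620-TET2CD cells 2889 held 3 or more members and 666 held 5 or more, with at most 8 in a cell. Of 23899 SW620 cells 1 held 3 members, and none held 5, which allows a share of up to 0.0126% of cells with UMIs of that many members and says nothing of cells that express them below detection. Over the pairs of members for which more than 1 such cell was expected, 45 on day 6 and 44 on day 15, cells with both genes were more frequent than the product of the single shares by a median factor of 2.92 on day 6 and 4.26 on day 15 in SW620-TET2CD. Thinned to 2000 UMIs, the median factor was 2.78 and 3.27 over 34 and 24 such pairs. In cells without a TET2 UMI the median factor was 4.01 and 5.13 without thinning, over 30 and 29 pairs. In cells left without a TET2 UMI after thinning, some of which held TET2 before it, the factor was 3.65 and 3.88, over 23 and 21 pairs. Cells and pairs of a library share their droplets and depth.

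The lines were also compared in the bulk libraries. The rule for the 10 genes lists the bulk tables beside the single-cell libraries, and the genes were chosen with earlier results of these data known. The bulk contrast may thus not be independent of the choice. TET2 was at 1.15 and 1.29 TPM inside and outside the colonies of SW620 on day 15 and at 38.1 and 124 TPM in SW620-TET2CD, and the expected counts of the 4 libraries summed to 21234717.6 to 25854058.05. Counts were tested with edgeR (quasi-likelihood, two-sided) with location as a block and Benjamini-Hochberg adjustment over 17722 genes, with 2 libraries of each line and 1 residual degree of freedom. Of the members, 8 passed the filter on low counts, and STRIT1 and FES did not. CALML3, SULT1C4, AGR2, RAB34, RAB25 and ALDH1A2 were past an adjusted p of 0.05 and higher in SW620-TET2CD, where 0.288% of all tested genes were called higher and 0.124% lower. These 6 had 0 to 4 expected counts in each SW620 library and passed the filter only through SW620-TET2CD, so they had to differ, and their calls are given as a description. CASC15 and SBSPON also had counts in SW620, with 114 and 33 inside and 74 and 19 outside. In bulk samples, fewer cells of a type and less RNA per cell cannot be told apart.

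RAB34 was at 0.26 and 0.23 TPM inside and outside in SW620 and at 8.79 and 44.8 TPM in SW620-TET2CD, a fitted log2 fold change of 7.33 (SE 0.67, adjusted p = 0.0457, edgeR). RAB25 was at 0.45 and 0.16 TPM in SW620 and 7.08 and 13.5 TPM in SW620-TET2CD, a log2 fold change of 5.69 (SE 0.49, adjusted p = 0.0457, edgeR). For both GTPases the higher SW620 library stayed well under the lower SW620-TET2CD library, which is a description, since non-overlap was not counted over all genes in bulk. CALML3, at 0.08 and 0.08 TPM in SW620 against 8.62 and 28.8 TPM, had a log2 fold change of 7.42 (SE 0.37, adjusted p = 0.0211, edgeR). SULT1C4 was at 0.07 and 0.06 TPM against 7.76 and 38.4 TPM, a log2 fold change of 7.81 (SE 0.51, adjusted p = 0.0304, edgeR). In SW620 these 4 genes rest on 1 to 4 expected counts per library, so the size of the fold is imprecise. As stated above they had to differ, so their adjusted p-values are a description. Scaled to library totals, SW620-TET2CD over SW620 was 210 (95% interval 89.7 to 648) for RAB34, 57.1 (95% interval 26 to 157) for RAB25, 244 (95% interval 104 to 753) for CALML3 and 282 (95% interval 129 to 768) for SULT1C4 summed over the locations.

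AGR2 was listed at 0 inside and at 0.11 TPM, from 1 count, outside in SW620, and at 31.3 and 21.4 TPM in SW620-TET2CD (adjusted p = 0.0304, edgeR). Summed over the locations its ratio between the lines was 688 (95% interval 123 to 27228), in counting error only. ALDH1A2 was at 0.24 TPM, from 1 count, inside and listed at 0 outside in SW620, and at 1.09 and 42 TPM in SW620-TET2CD (adjusted p = 0.0457, edgeR). With the count of 0 in SW620 set to 3 counts, it was 519-fold higher outside the colonies in SW620-TET2CD. The exact lower 95% limit from the count of 0 was 422, in counting error only. AGR2 and ALDH1A2 also had to differ, so their adjusted p-values are a description. CASC15 was at 3.37 and 1.98 TPM against 25 and 71.4 TPM, a log2 fold change of 4.11 (SE 0.48, adjusted p = 0.0601, edgeR), and SBSPON at 0.45 and 0.34 TPM against 4.55 and 26.9 TPM, a log2 fold change of 4.89 (SE 0.71, adjusted p = 0.0731, edgeR). Neither passed the threshold in this fit. Their libraries did not overlap between the lines. With 2 libraries of each line, and without a count of how many of all genes did so in bulk, this is only a description. With edgeR and no filter on low counts both were called higher, and with upper-quartile factors CASC15 was (adjusted p = 0.0453, edgeR) and SBSPON was not (adjusted p = 0.0582, edgeR), where 0.581% of 17722 genes were called higher.

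The low genes STRIT1 and FES did not enter this fit, and without the filter neither passed the threshold (adjusted p = 0.366 and 0.382, edgeR). STRIT1 was at 0.33 and 0.09 TPM in SW620 and at 0.1 and 2.94 TPM in SW620-TET2CD, so the lines overlapped. FES was at 0.14 and 0.16 TPM against 0.19 and 1.2 TPM, and SW620-TET2CD over SW620 was 3.41 (95% interval 1.58 to 8.16) in counts summed over the locations. The undivided cultures of day 6 were also low: in SW480 the 10 genes ranged from 0 for SULT1C4, AGR2 and ALDH1A2 to 1.12 TPM for STRIT1, and in SW620 from 0 for AGR2 and STRIT1 to 2.94 TPM for CASC15. Without location as a block AGR2 alone of the members was past the threshold, where 0.0169% of 17722 genes were called higher. In fits without the block that left out 1 library, no member was called without the inside or without the outside library of SW620, while 9, STRIT1 among them, and 8 were called higher without the inside and the outside library of SW620-TET2CD. The share of all genes called higher was then 11.5% of 18664 and 7.66% of 18215. Each of these fits left 1 library in a line, so its calls are given as a description. STRIT1, with 4 and 1 expected counts in SW620, passed the filter only through its 35 outside in SW620-TET2CD. The members near 0 in SW620 again passed it only through SW620-TET2CD, so they had to differ. The absence of calls without an SW620 library was not specific to the members. The log2 fold changes between the lines were lowest without the outside library of SW620-TET2CD, at 6.07 for RAB34, 5.34 for RAB25, 6.47 for CALML3, 6.54 for SULT1C4, 3.60 for SBSPON and 3.36 for CASC15. They were highest without the inside library of SW620 for RAB34 (8.67) and RAB25 (6.20), and without the inside library of SW620-TET2CD for CALML3 (8.11), SULT1C4 (8.67), SBSPON (6.05) and CASC15 (4.84). DESeq2 called all 8 tested members and 1.96% of 17722 genes higher, and edgeR without the filter called 8 of 10, where 3.34% of 31544 genes were called higher.

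**Figure D4:**
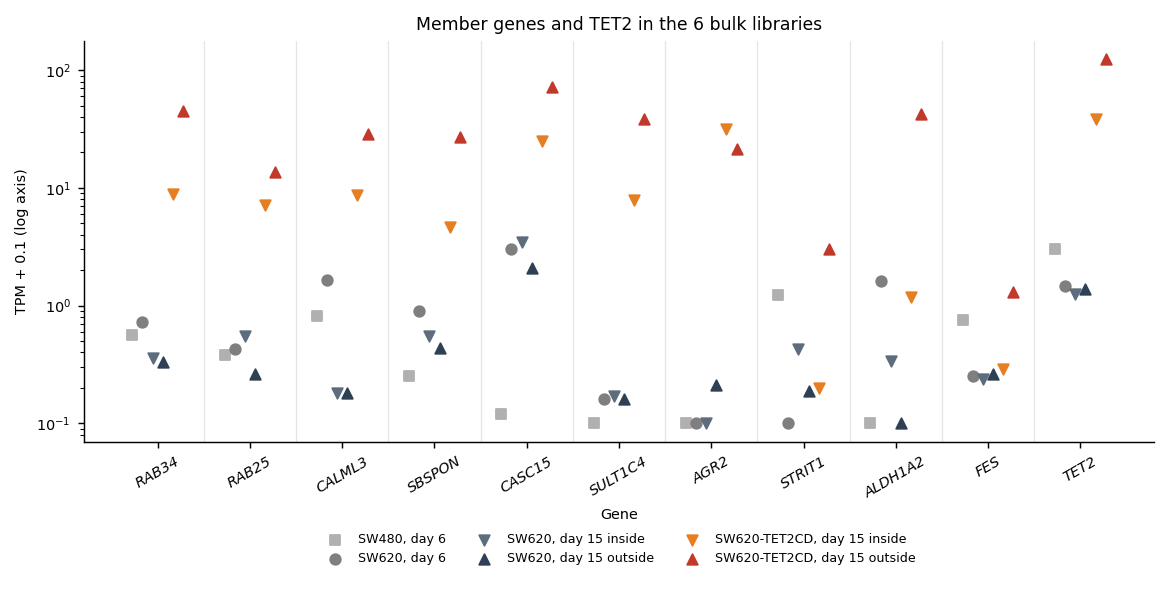
TPM plus 0.1 (log axis) of the 10 members and TET2 in the 6 bulk libraries, with 1 point per library. In SW620-TET2CD on day 15 (orange and red triangles) 7 members lie above all other libraries, while the inside library overlaps the others for STRIT1, FES and ALDH1A2.

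Within SW620-TET2CD most members were higher outside than inside the colonies, and AGR2 was not. Scaled to the library totals, the expected count outside over inside was 51.6 (95% interval 35.6 to 77.8) for ALDH1A2, 5.68 (95% interval 5.01 to 6.47) for SBSPON and 4.69 (95% interval 3.95 to 5.61) for RAB34, where TET2 itself had 3.18 (95% interval 3.1 to 3.28). The ratio was 4.52 (95% interval 3.95 to 5.19) for SULT1C4, 3.24 (95% interval 2.81 to 3.75) for CALML3, 2.91 (95% interval 2.69 to 3.15) for CASC15, 2.70 (95% interval 1.12 to 7.45) for FES and 1.68 (95% interval 1.33 to 2.13) for RAB25. AGR2 went the other way, with 0.718 (95% interval 0.615 to 0.838). STRIT1 had 1 count inside and 35 outside, a ratio of 28.7 (95% interval 4.83 to 1167). The intervals cover counting error only, since each location has 1 library, and the fit over both lines called no member and 0% of 17722 genes (edgeR, smallest adjusted p = 0.278, with 1068 genes at an unadjusted p under 0.05 and 21 called by DESeq2). Without the filter on low counts the fit called 285 of 31544 genes (0.903%) higher outside and 187 (0.593%) lower. RAB34, CALML3, SBSPON, SULT1C4 and ALDH1A2 were called higher. In SW620 their expected counts inside and outside were 4 and 1, 2.62 and 2.59, 33 and 19, 4 and 2.12, and 1 and 0. None had a higher TPM outside than inside in SW620, so SW620-TET2CD set the direction, and the calls are given as a description. The members had at most 33 counts in either location of SW620, apart from CASC15 with 114 inside and 74 outside.

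Change over time was tested in the single-cell sums, with days 12 and 15 against days 6 and 9 in each line. The fit took all 8 libraries (edgeR's quasi-likelihood test, two-sided, 4 residual degrees of freedom, Benjamini-Hochberg adjustment over 17478 genes), and days within a period stand in for replicates. In SW620-TET2CD RAB25 rose, and SBSPON, ALDH1A2, FES and CALML3 fell, where 14.8% of all tested genes were called higher and 16.9% lower. The log2 fold change was 1.19 (SE 0.34, adjusted p = 0.0265, edgeR) for RAB25, -1.46 (SE 0.24, adjusted p = 0.00344, edgeR) for SBSPON and -1.13 (SE 0.33, adjusted p = 0.0265, edgeR) for ALDH1A2. It was -1.19 (SE 0.40, adjusted p = 0.0463, edgeR) for FES and -1.28 (SE 0.44, adjusted p = 0.0498, edgeR) for CALML3. TET2 fell as well, by 1.20 on the log2 scale (adjusted p = 0.00874, edgeR), and its part in the change of the members was not tested. Not past the threshold were CASC15 with a log2 fold change of 0.64, SULT1C4 with 0.97, RAB34 with -0.52, STRIT1 with -0.69 and AGR2 with -0.93. These calls depended on the cells kept and on the test: with no upper limits on genes and UMIs no member was called in SW620-TET2CD (9.87% of 18395 genes higher and 10.3% lower). With every barcode RAB25 alone was, where 7.68% of 18584 genes were called higher and 8.11% lower, and with a mitochondrial limit of 20% RAB25 and SBSPON were, where 12.2% of 17960 genes were called higher and 15.2% lower. With DESeq2 CALML3 was not called and SULT1C4 was called higher, where 15% of genes were called higher and 17.8% lower. Without the filter on low counts SULT1C4 and CASC15 were called higher and AGR2 lower besides the 5, where 11.8% of 26937 genes were called higher and 13% lower. SBSPON alone kept its call when each library in turn was left out. RAB25 lost it without day 6 or day 15 of SW620-TET2CD, ALDH1A2 without day 6 or day 12 of that line, FES without day 6 or day 15 of that line or day 6 or day 9 of SW620, and CALML3 without those 4 or day 9 of SW620-TET2CD. Without day 9 of SW620-TET2CD the log2 fold change of RAB25 was 1.85, and without day 12 that of CALML3 was -2.07.

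In SW620 RAB25 rose and CALML3, SBSPON and ALDH1A2 fell, where 17.4% of genes were called higher and 18.6% lower. The log2 fold change there was 3.61 (SE 0.79, adjusted p = 0.00758, edgeR) for RAB25, from 2 UMIs early and 23 late, and -4.37 (SE 0.64, adjusted p = 0.00136, edgeR) for CALML3. For SBSPON it was -1.33 (SE 0.29, adjusted p = 0.00679, edgeR) and for ALDH1A2 -2.29 (SE 0.42, adjusted p = 0.0034, edgeR). RAB25 lost this call without day 6 of SW620, and SBSPON lost it without day 15 of SW620, with every barcode and with no upper limits on genes and UMIs, while CALML3 and ALDH1A2 kept theirs under all alternatives run. The log2 fold change of CALML3 was -5.94 without day 12 and -3.67 without day 15 of SW620, and that of RAB25 was 2.97 with every barcode. The difference of the time effect between the lines passed the threshold for no member and for 0% of all genes (edgeR, 141 genes at an unadjusted p under 0.05, DESeq2 none). For CALML3 this difference, SW620-TET2CD minus SW620, was 3.09 (SE 0.80, adjusted p = 1.00, edgeR) on the log2 scale, with 2.31 without day 12 of SW620-TET2CD and 4.64 without day 12 of SW620 as the lowest and highest values when 1 library was left out. With upper-quartile factors the median log2 fold change of all genes was 0.23 in SW620-TET2CD and 0.18 in SW620, against 0.04 and 0.03 with TMM factors. The calls then split into 3838 higher and 2094 lower in SW620-TET2CD and 3910 and 2539 in SW620, against 2588 and 2948 and 3043 and 3259 with TMM. All 10 members had the same direction under either scaling in SW620-TET2CD, with CASC15 now called higher and FES and CALML3 no longer called lower, where 22% of genes were called higher and 12% lower.

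**Figure D5:**
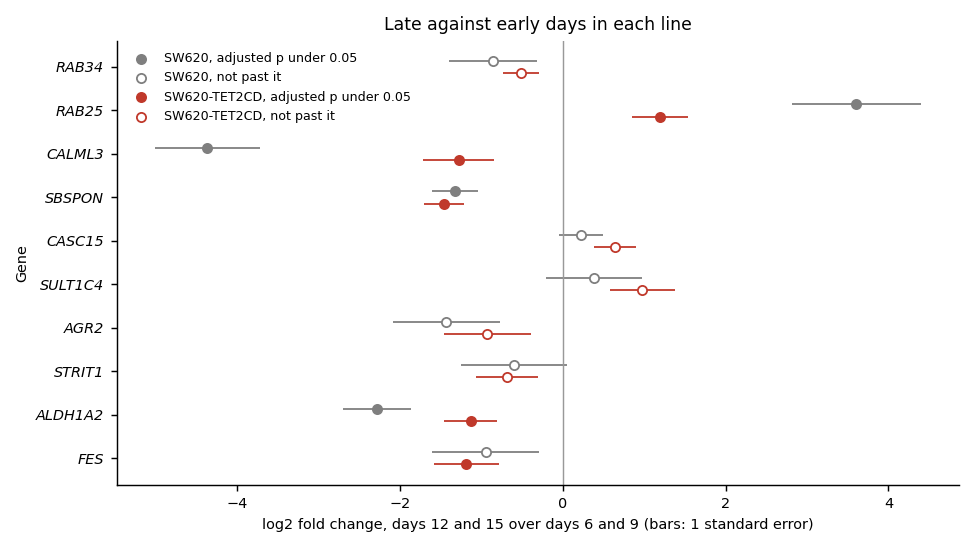
Log2 fold change of days 12 and 15 over days 6 and 9 for each member in SW620 (grey) and SW620-TET2CD (red), with bars of 1 standard error and filled points for an adjusted p under 0.05 (edgeR). RAB25 lies right of 0 and SBSPON, ALDH1A2 and CALML3 left of 0 in each line.

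Genes whose level over the 8 single-cell libraries was most like the mean of the members, by Pearson's r of log2(CPM + 1) among 8714 genes that averaged 8 CPM or more, were MIB2 (r = 0.977), NXN (0.976), TET2 (0.976), TPST2 (0.968) and CAPN1 (0.961). The 8 points are 2 lines on 4 shared days, so a gene that differs between the lines by a steady amount scores high. NXN, a thioredoxin-like protein, was at 14.5, 16.2, 12.1 and 11.3 CPM in SW620 and 33.8, 32.9, 27.0 and 25.3 CPM in SW620-TET2CD on days 6 to 15. MIB2, a ubiquitin ligase of Notch signaling, was at 23.4 to 25 CPM in SW620 and 38.1 to 41.3 CPM in SW620-TET2CD. Both of these genes were expressed in SW620, where RAB34, RAB25, SULT1C4, STRIT1 and FES stayed under 1 CPM.

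Within 100 kb of the members' bodies the annotation (GENCODE v44) lists 114 other genes, of which 50 were tested in bulk and 1 was called higher in SW620-TET2CD and none lower, where 0.288% of all tested genes were called higher and 0.124% lower (edgeR, 13 at an unadjusted p under 0.05, against 3536 of all 17722 genes, DESeq2 2 higher and 1 lower), with a median log2 fold change of -0.05 against 0.00 over all tested genes. The called gene, ENSG00000256462, overlaps CALML3 on the opposite strand, with 0.17 and 0.19 TPM in SW620 and 5.8 and 28.7 TPM in SW620-TET2CD (inside first). It was near 0 in SW620, as were the members called in bulk, so its call is given as a description. In single cells it was at 0, 0.0184, 0 and 0 CPM in SW620 and at 0, 0.0138, 0 and 0.0196 CPM in SW620-TET2CD on days 6, 9, 12 and 15. CALML3-AS1 overlaps CALML3 in the same way and NBAT1 overlaps CASC15, and without strand the reads of such pairs cannot be told apart in bulk. In single cells CALML3-AS1 was at 1.14, 0.717, 0.276 and 0.416 CPM in SW620 on days 6 to 15. In SW620-TET2CD it was at 1.90, 2.72, 3.07 and 3.59 CPM. NBAT1 was near 0 in SW620, at 0.0135, 0.0551, 0.0197 and 0 CPM, and at 0.175, 0.276, 0.208 and 0.294 CPM in SW620-TET2CD. CALML5, another calmodulin-like gene, which lies 25391 bp from CALML3, was listed at 0 in the 4 bulk libraries other than SW620-TET2CD and at 0.09 and 1.38 TPM there. In single cells CALML5 was at 0, 0.0184, 0 and 0 CPM in SW620 and 0.62, 1.36, 0.913 and 1.22 CPM in SW620-TET2CD. SOX4, next to CASC15, had a bulk log2 fold change of 0.11, and AGR3, a paralog 25979 bp from AGR2, stayed at or under 0.332 CPM in all single-cell libraries. LIPC, whose body overlaps that of ALDH1A2 on the opposite strand, was expressed in both lines, at 45.1 and 27.1 TPM in SW620 and 62.6 and 25.6 TPM in SW620-TET2CD.

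Of 21 close relatives of the members 13 were tested between the lines in bulk, and none was called higher or lower (edgeR, 4 at an unadjusted p under 0.05, DESeq2 none), with a median log2 fold change of 0.13. Among them RAB36, a close relative of RAB34, had a log2 fold change of -1.38 (SE 0.40, adjusted p = 0.168, edgeR), SULT1C2, which lies in the same gene cluster as SULT1C4, -0.17 (SE 0.22, adjusted p = 0.706, edgeR), and SULT1A1 -0.00 (SE 0.13, adjusted p = 0.998, edgeR). ALDH1A3, a further retinaldehyde dehydrogenase, was at 10.4 and 9.44 TPM in SW620 and 18.9 and 90.6 TPM in SW620-TET2CD, a log2 fold change of 2.24 (SE 0.50, adjusted p = 0.121, edgeR). Of 19 genes of retinoic acid metabolism and response 15 were tested, and DHRS3 was called higher in SW620-TET2CD, as was the member ALDH1A2, which had to differ as stated above, and none lower, where 0.288% of all tested genes were called higher (edgeR, 9 at an unadjusted p under 0.05, DESeq2 3 higher and 2 lower), with a median of 0.36. DHRS3 reduces retinaldehyde back to retinol, and was at 7.48 and 6.01 TPM in SW620 and 26 and 24.3 TPM in SW620-TET2CD, a log2 fold change of 1.87 (SE 0.14, adjusted p = 0.0372, edgeR). All 12 TET and DNA methylation genes were tested, and TET2 alone was called, higher with a log2 fold change of 5.90 (SE 0.47, adjusted p = 0.0457, edgeR), while TET1 had -0.09 and TET3 -0.15 (median of the list -0.18). Of 12 partners of AGR2 and RAB25 in epithelial secretion 9 were tested and none was called (edgeR, 5 at an unadjusted p under 0.05, DESeq2 1 higher and 1 lower), with a median of 0.16. MUC1, a membrane mucin, came nearest, at 24.8 and 21.8 TPM in SW620 and 3.32 and 1.2 TPM in SW620-TET2CD, a log2 fold change of -3.34 (SE 0.37, adjusted p = 0.0546, edgeR).

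Over time the same lists had members past the threshold in each line, where 14.8% of all tested genes were called higher and 16.9% lower in SW620-TET2CD and 17.4% and 18.6% in SW620. Of 16 relatives tested, 2 were called higher and 4 lower in late days of SW620-TET2CD, and 1 and 3 in SW620. SULT1C2 rose in SW620-TET2CD (log2 fold change 1.06, adjusted p = 0.022, edgeR) and in SW620 (0.88, adjusted p = 0.0395, edgeR), and ALDH1B1 fell in each. Of 16 retinoic acid genes 3 were called higher and 3 lower in SW620-TET2CD, and 3 and 2 in SW620. DHRS3 (log2 fold change 2.28 in SW620-TET2CD and 2.52 in SW620) and the retinoic acid binding protein gene CRABP2 (2.34 and 2.55) rose in each line while ALDH1A2 fell. Of 11 secretory partners 4 rose in SW620-TET2CD and 4 in SW620, and the trefoil peptide gene TFF3 was among them in each line. Of the 12 TET and DNA methylation genes 2 were called higher and 5 lower in SW620-TET2CD, and 1 and 3 in SW620, with the maintenance methyltransferase gene DNMT1 lower in each.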

How the data were processed

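Single-cell libraries were made with 10x Chromium 3′ chemistry. The authors ran Cell Ranger 4.0 against GRCh38, and the deposited matrices hold UMI counts per gene and cell barcode. For bulk RNA-seq the authors used Bowtie and RSEM per the labels, and the deposited tables hold expected counts and TPM per gene, together with lengths and FPKM that were not used. The library kit named in the methods does not mark strand.

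The limits named in the study's methods were applied to barcodes: genes between 200 and 4500, UMIs between 1000 and 20000, and a mitochondrial share of no more than 10%. Doublets were not called, and an alternative dropped the deepest 8% of cells in each library. UMIs were summed per library and given as CPM. Each cell was thinned to 2000 UMIs for shares of cells. Gene positions are those of GENCODE v44 (GRCh38), and upstream sequences are from RefSeq.

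Expected counts were rounded to whole numbers. Tests used edgeR 4.0.16 in R 4.3.3 (filterByExpr, TMM, quasi-likelihood F-test, Benjamini-Hochberg adjustment over all tested genes, threshold 0.05), fitted on whole tables. In bulk, 45 rows for the Y copies of pseudoautosomal genes were left out. Alternatives were DESeq2 1.42.0, no filter on low counts, upper-quartile factors, other limits on cells, and leaving out each library. On simulated counts the bulk fit between lines recovered 48% of genes changed by 1 and 90% of those changed by 2 on the log2 scale, and the fit over days in SW620-TET2CD 38% and 85%. The simulation changed 200 genes and took the spread of each gene from the fitted trend alone. These shares thus need not hold for the real counts, where CASC15 and SBSPON were not called in bulk despite larger fold changes. Counting intervals are exact Poisson or Clopper-Pearson intervals at 95%, and a count of 0 was given a floor of 3 counts.

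The labels give 1 library per group, so libraries of different days or locations stand in for replicates. Nothing states whether different days came from separate cultures. The study's methods describe inside and outside cells as parts of a digested suspension, split by the strainer. The members and the gene lists were chosen with earlier results of these data known. Named genes were the 10 members, TET2, genes of the lists, neighbours within 100 kb, and the 5 genes with a mean of at least 8 CPM whose pattern over the 8 libraries was most like the mean of the members. Of the relatives, neighbours and partners, those described were chosen after their values were seen.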

Additional observations from a re-analysis of the deposited data

Results flagged for a closer look

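STRIT1 in SW620-TET2CD on day 15, at 2.10 CPM, stood apart from days 6, 9 and 12, which were at 4.89, 5.24 and 4.88 CPM. Its gap to the nearest of these, divided by the range of the 4 libraries, was above Dixon's 95% critical value. The value rests on 107 UMIs. The 4 libraries are different days and not replicates, so an outlying library and a change over time cannot be told apart. Of the 20 groups of 4 libraries examined in this way, chance alone would mark about 1 in 20 if the 4 were replicates.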

How the results depend on the processing

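In the single-cell sums, all 10 members were higher in each SW620-TET2CD library than in each SW620 library under all 5 alternatives tried. This contrast was used to choose the genes. The share of all genes was counted in the main setting only, at 2.37% of 17478. The bulk line contrast called 709 genes with DESeq2, 2239 without the filter on low counts, 178 with upper-quartile factors and 8 without location as a block, against 73. Leaving out 1 library, without the block, gave 0 to 4191, with 0 without either SW620 library and 4191 without the inside library of SW620-TET2CD, where the lone sample of a line is assumed to vary like the other line. The bulk location contrast called 21 genes with DESeq2, 472 without the filter and 0 to 0 without 1 library. There the log2 fold changes turned when a library was left out, ranging from -6.22 to 6.67 for RAB34, -4.84 to 4.73 for RAB25, -5.39 to 7.20 for CALML3, -3.09 to 4.80 for SBSPON, -2.76 to 3.68 for CASC15, -6.02 to 7.35 for SULT1C4, -7.42 to 10.21 for AGR2 and -6.96 to 9.55 for ALDH1A2, since the remaining locations then held unequal numbers of each line. Over time, SW620-TET2CD gave 2935 calls with every barcode and 1114 to 6778 without 1 library (lowest without its own day 6), and SW620 2455 to 7168 (lowest without its own day 6). The difference between the lines gave 15 calls without the filter, 1 of them a member (CALML3), 1 with day as a block and 0 to 0 without 1 library. For this difference SBSPON turned to 0.083 with every barcode, 0.0060 with no upper limits and 0.0053 with a mitochondrial limit of 20%, FES to 0.55 with every barcode and 0.55 with no upper limits, and STRIT1 to 0.00045 with every barcode. Without 1 library it ranged from -0.029 to 0.83 for RAB34, -0.46 to 0.26 for SBSPON, -0.44 to 1.49 for AGR2, -0.91 to 0.43 for STRIT1 and -0.74 to 0.26 for FES. Late against early days ranged from -0.039 to 0.49 for CASC15 and -0.64 to 0.95 for SULT1C4 in SW620, and from -1.53 to 0.054 for AGR2 in SW620-TET2CD. The co-detection difference was 2.16 percentage points thinned to 1000 UMIs, 13.1 not thinned and 3.54 to 4.47 without 1 day. Except where stated, the cause of these shifts was not tested. The labels give 1 library per group and no replicate numbers, so no fit with a replicate block was made, and the blocks used were location and day.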
